A study of Mus musculus with 13 samples.

Results

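Chaperone genes of the cytosol and of the endoplasmic reticulum (ER) were followed in brain vessel RNA from mice given lipopolysaccharide (LPS) with or without CPD-4645, an inhibitor of monoacylglycerol lipase, the enzyme that breaks down the endocannabinoid 2-AG. The 10 genes are *Hspa1a*, *Hspa1b*, *Hsph1* and *Dnajb1*, 4 genes of the cytosolic heat shock system, and *Hspa5*, *Pdia4*, *Sdf2l1*, *Creld2*, *Manf* and *Hyou1*, 6 genes of the ER. They were picked by symbol from the 47643 genes of the count table, with earlier results of these data known. All 10 were found, and all 10 were among the 17285 genes with enough counts to be tested.

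The 13 mice were male CD1 mice aged 8 to 10 weeks, an outbred stock without a transgene. The 4 sham-vehicle mice received PBS and the vehicle of the compound, a mixture of DMSO, Cremophor and saline. The 5 LPS-vehicle mice received intraperitoneal LPS from *Salmonella* at 3 mg/kg at 0, 6 and 24 h, with the same vehicle. The 4 LPS-CPD-4645 mice received the same LPS doses and CPD-4645 at 10 mg/kg under the skin 30 min after each of them. The study's text also gives a longer delay in another place. Brains were taken at 28 h without perfusion, so that blood in the vessels was part of the material, and each library came from 1 mouse. There was no group given CPD-4645 without LPS.

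Cytosolic chaperones hold newly made or damaged proteins until they fold. HSPA1A and HSPA1B are the stress-inducible HSP70 proteins, DNAJB1 is a J-domain cochaperone that delivers clients to HSP70 and starts its ATP cycle, and HSPH1 (HSP110) is a nucleotide exchange factor that lets HSP70 release them. The transcription factor HSF1 drives these genes when unfolded protein builds up in the cytosol. The ER has its own machine: HSPA5 (BiP) is its HSP70, HYOU1 the matching exchange factor, PDIA4 a protein disulfide isomerase, SDF2L1 a partner of the ER J-domain proteins, and CRELD2 and MANF are ER-resident proteins that are made in larger amounts under ER stress. ER stress is sensed by ATF6, by IRE1 (*Ern1*), which splices the mRNA of *Xbp1*, and by PERK (*Eif2ak3*), which acts through ATF4. The first 2 of these arms induce the ER chaperones, and the PERK arm induces genes of amino acid supply and stress adaptation.

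The promoter pieces below show where the DNA elements of these pathways lie in the genes compared. They were taken from RefSeq promoters of GRCm38.p6 that run from 250 bases before to 50 bases after a start site, and 8 of the 10 genes matched an entry. *Manf* and *Hyou1* did not. Capitals mark the match to the element and lower case the bases around it, and each piece is written 5′ to 3′ on the strand of the gene. The ER stress response element was searched as CCAAT, 9 further bases and CCACG, on both strands. It was present in 0.119% of the 32851 promoters of 300 bases, *Hspa5* (chr2:34772015-34772053, plus strand) and *Creld2* (chr15:88819510-88819548, plus strand) among them. *Hspa5* carried it 65 to 47 bases before its start, and *Creld2* carried it on the opposite strand, 126 to 108 bases before its start. *Pdia4* (chr6:47813592-47813630, minus strand) held a form in which 1 of the 10 spelled letters differed, 108 to 90 bases before its start. The search with 1 letter allowed to differ was added after the exact matches were seen, and 1.5% of all promoters held such a match or an exact one.
Hspa5: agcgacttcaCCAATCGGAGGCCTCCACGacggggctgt
Creld2: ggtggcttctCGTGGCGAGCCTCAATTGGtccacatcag
Pdia4: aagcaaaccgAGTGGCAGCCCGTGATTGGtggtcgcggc

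The heat shock element was searched as 3 alternating units of GAA and TTC with 2 bases between units, on both strands. An exact match was present in 0.603% of the promoters, and among the 8 genes only in *Hsph1* (chr5:149636280-149636308, minus strand), just after the start sites listed for it. With 1 of the 9 spelled letters allowed to differ, 7.22% of the promoters held a match. *Hsph1* had a further pair of overlapping matches of this kind before its start sites (chr5:149636342-149636379), and so had *Hspa1a* (chr17:34972243-34972280, minus strand) and *Hspa1b* (chr17:34959325-34959362, minus strand), where the capitals span both overlapping matches. The pieces of *Hspa1a* and *Hspa1b* were identical. No match at this setting was found in the *Dnajb1* window, and neither ATTGG with 1 base before CCACG (in 0.0365% of promoters) nor TGAC followed at once by GTGG (0.676%) was found in any of the 8. The CCAAT part of the ER element is itself common, in 37.4% of promoters and in all 8 genes.
Hsph1, after the start: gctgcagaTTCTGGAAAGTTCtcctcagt
Hsph1, before the start: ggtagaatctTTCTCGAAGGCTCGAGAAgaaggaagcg
Hspa1a: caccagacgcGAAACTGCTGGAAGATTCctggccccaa
Hspa1b: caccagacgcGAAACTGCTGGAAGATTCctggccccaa

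Expression is given as CPM, the counts relative to a library total scaled by TMM, with the SD over mice. Library totals ran from 7813559 to 55133373 counts with a median of 26989885, and they were smallest in LPS-vehicle mouse 3 and in mouse 1 of the LPS-CPD-4645 group. The lowest count of any of the 10 genes in any library was 77, for *Hspa1a* in LPS-vehicle mouse 3. Mitochondrial genes took 6.47% to 12.7% of the counts in sham-vehicle, 4.84% to 7.05% in LPS-vehicle and 3.97% to 8.17% in LPS-CPD-4645 mice. Sham-vehicle mouse 4 had the highest of these shares, the lowest TMM factor (0.908) and the lowest summed level of endothelial markers (343 CPM). All 8 endothelial marker genes were detected, with a summed level of 343 to 904 CPM per library. The 6 neuronal marker genes, with *Snap25* the highest, were also present in every library and summed to 7440 to 10100 CPM, so the fraction labelled neurovasculature also held RNA of neurons. In such bulk RNA, fewer cells of a type and less RNA per cell cannot be told apart.

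Differences between groups are log2 fold changes from an edgeR quasi-likelihood model that held every mouse. The standard error (SE) given with them was worked back from the test, as the absolute log2 fold change over the square root of the F statistic. A gene is said to have risen or fallen where its Benjamini-Hochberg adjusted p over all 17285 genes was at most 0.05. Between LPS-vehicle and sham-vehicle mice, 1 of the 4 heat shock genes (*Hsph1*) fell and 0 of the 6 ER genes passed the test, where 19.9% of all genes passed. When LPS-CPD-4645 was compared with LPS-vehicle, 1 heat shock gene (*Dnajb1*) rose and 4 of the 6 ER genes fell (*Pdia4*, *Sdf2l1*, *Creld2* and *Manf*), where 30.5% of all genes passed. Between LPS-CPD-4645 and sham-vehicle mice, *Dnajb1* rose, *Hsph1* fell and 5 of the 6 ER genes fell, where 38.8% of all genes passed. The median log2 fold change of the 6 ER genes was 0.18, -0.52 and -0.42 in these 3 comparisons, beside -0.00, -0.02 and -0.01 over all genes tested. For the 4 heat shock genes it was 0.00, -0.05 and 0.13. The comparisons share groups of mice, so they are not independent of each other. The genes were chosen with earlier results of these data known, so these counts are not an independent test of the list. The test against sham-vehicle left all 6 ER genes short of the threshold after LPS, and at an unadjusted p under 0.05 only *Manf* was higher. DESeq2 and limma-voom also gave 0 of 6, and leaving out LPS-vehicle mouse 4 gave 1 of 6, *Manf*.

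**Figure D1:**
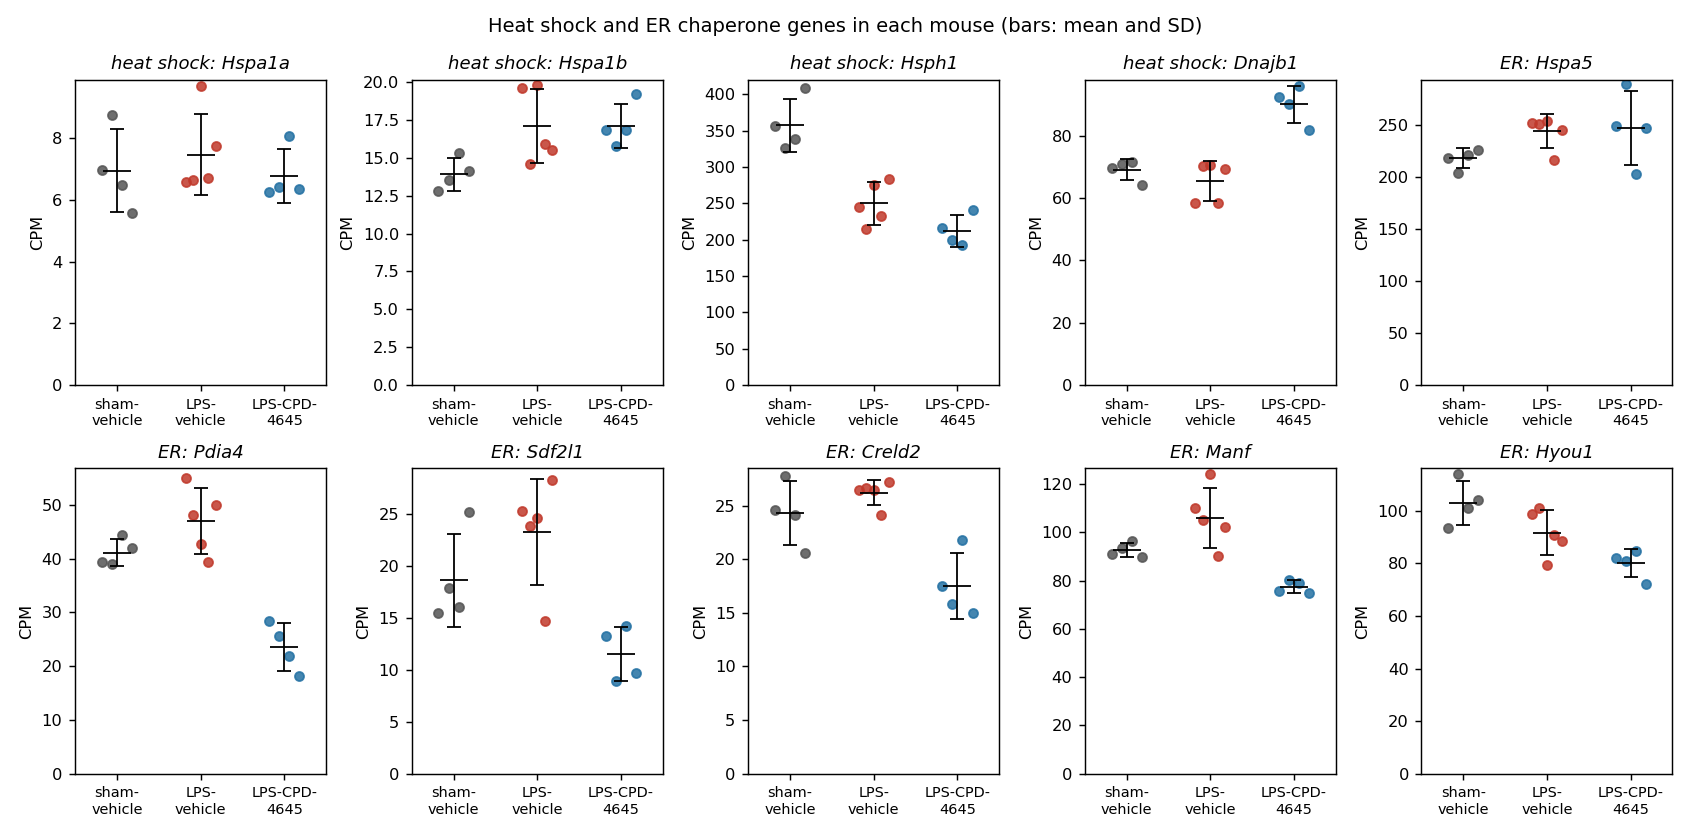
CPM (vertical axes, from 0) of each of the 10 genes in every mouse, 1 point per mouse, with the mean and SD of each group as bars, for 4 sham-vehicle, 5 LPS-vehicle and 4 LPS-CPD-4645 mice. The LPS-CPD-4645 mice lie below all LPS-vehicle mice for *Pdia4*, *Sdf2l1*, *Creld2* and *Manf* and above them for *Dnajb1*, while their *Hspa5* levels of 203 to 289 CPM span those of the LPS-vehicle mice.

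Levels per kilobase of exon, from the mean CPM of sham-vehicle mice, placed *Hsph1* highest at 84.6 ± 8.71 CPM per kb (SD, n = 4) and *Hspa5* next at 58.0 ± 2.52. *Hyou1* at 21.6 ± 1.75 and *Dnajb1* at 21.6 ± 1.02 did not differ beyond their spread. *Creld2* at 17.8 ± 2.17, *Pdia4* at 17.1 ± 1.06 and *Sdf2l1* at 16.8 ± 4.05 CPM per kb formed another set of neighbours within each other's spread. *Manf* is left out of this order because its annotated exons include transcripts that run into neighbouring genes. *Hspa1b* at 4.97 ± 0.385 and *Hspa1a* at 2.34 ± 0.452 CPM per kb were lowest. Both of these values are uncertain, since reads from the stretches that the genes share could have been left out of gene counts.

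*Hsph1* (ENSMUSG00000029657, chr5:149614287-149636376 of GRCm38, minus strand), the cytosolic exchange factor, was the heat shock gene that changed after LPS. Its levels were 356, 326, 339 and 409 CPM in the sham-vehicle mice and 245, 214, 275, 232 and 284 CPM in the LPS-vehicle mice. Every LPS-vehicle mouse lay below every sham-vehicle mouse, as was the case in either direction for 18.1% of all genes. The fall was 1.43-fold, a log2 fold change of -0.52 (SE 0.097, edgeR adjusted p = 0.000894), so that it did not reach the 2-fold change of the study's threshold. None of the 10 genes did after LPS, in edgeR, DESeq2 or limma-voom, where 5.68% of all genes did. In the LPS-CPD-4645 mice the levels were 216, 199, 192 and 241 CPM, lower still than in the LPS-vehicle mice on average but overlapping with them. That further difference of -0.24 (SE 0.098) had an edgeR adjusted p of 0.0767. It passed without LPS-vehicle mouse 2 (adjusted p = 0.0331) and without LPS-CPD-4645 mouse 4 (0.049). Against sham-vehicle mice the difference under CPD-4645 was -0.75 (SE 0.104, adjusted p = 2.09e-05), a 1.69-fold fall in which the groups did not overlap.

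Between LPS-vehicle and sham-vehicle mice the neuronal markers were lower beside *Hsph1*. Their summed level was 8720 to 10000 CPM in sham-vehicle mice and 7440 to 8230 CPM in LPS-vehicle mice, and all 6 genes had log2 fold changes below 0, from -0.27 to -0.20, none of them past the test. In LPS-CPD-4645 mice the sum was 7830 to 10100 CPM. Relative to LPS-vehicle 5 of the 6 genes were above 0 there, from -0.04 to 0.28 on the log2 scale, and *Rbfox3* rose (0.28, SE 0.104, edgeR adjusted p = 0.0495), while the *Hsph1* difference was -0.24. Other markers passed the test beside *Hsph1* after LPS, where 19.9% of all genes passed. Of the 8 endothelial markers 5 rose and 1 fell, with summed levels of 343 to 534 CPM in sham-vehicle and 461 to 904 CPM in LPS-vehicle mice, and of the 6 oligodendrocyte markers 1 rose and 4 fell, with sums that did not overlap (4450 to 6390 and 3160 to 4180 CPM). All 6 neutrophil and 4 of 5 monocyte and macrophage markers tested rose, and 3 of 6 microglial and 4 of 4 erythrocyte markers fell. Of 7 pericyte and smooth muscle markers 1 rose and 4 fell, and of 5 fibroblast markers 1 rose and 2 fell. Among 6 astrocyte markers 2 rose (sums of 1270 to 1610 and 1630 to 2150 CPM). Among 5 ependymal markers 1 fell (21.8 to 25.7 and 11.2 to 19.9 CPM), as did 1 of 5 choroid plexus and 1 of 4 B and plasma cell markers. No T cell or platelet marker tested passed. The part of these cells in the *Hsph1* values was not tested. The genes whose levels over the 13 mice most resembled those of *Hsph1*, by the root mean square difference of centred log2 CPM among 14845 genes, were *Med14* (0.07), *Marcks* (0.10), *Erbb4* (0.10), *Khdrbs3* (0.10) and *Sept8* (0.11). None of them is on the chaperone lists used here.

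*Dnajb1* (ENSMUSG00000005483, chr8:83608193-83612653, plus strand), the J-domain cochaperone, rose under CPD-4645. It measured 69.6, 70.9, 71.5 and 64.3 CPM in sham-vehicle mice and 58.5, 70.1, 70.6, 58.5 and 69.4 CPM in LPS-vehicle mice. These groups overlapped, with a log2 difference of -0.08 (SE 0.083, edgeR adjusted p = 0.552). The LPS-CPD-4645 mice measured 92.5, 90.1, 95.8 and 81.9 CPM, all above every mouse of both other groups. The rise over LPS-vehicle was 1.38-fold (log2 0.46, SE 0.082, edgeR adjusted p = 0.000484) and over sham-vehicle 1.3-fold (log2 0.38, SE 0.087, adjusted p = 0.00205). Of all genes, 23.0% did not overlap between the LPS groups, and 37.5% did not between LPS-CPD-4645 and sham-vehicle mice. Taken within each library, *Dnajb1* stood at 19.5% ± 2.73 of the *Hsph1* CPM in sham-vehicle (SD, n = 4), 26.4% ± 3.64 in LPS-vehicle (n = 5) and 43.0% ± 6.67 with CPD-4645 (n = 4). The lowest LPS-CPD-4645 library, at 34.0%, lay above the highest LPS-vehicle library, at 32.8%. The ratio describes the libraries and was not tested. It sets a gene that rose beside one with lower levels, so its change follows from the levels already given.

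The inducible HSP70 genes themselves did not pass the edgeR test in any comparison. *Hspa1a* (ENSMUSG00000091971, chr17:34969190-34972156, minus strand) measured 6.99, 8.77, 6.49 and 5.58 CPM in sham-vehicle, 6.59, 6.65, 9.7, 6.71 and 7.75 CPM in LPS-vehicle, and 6.25, 6.44, 8.09 and 6.36 CPM with CPD-4645. All 3 groups overlapped, and the fitted differences lay between -0.12 and 0.09 on the log2 scale. *Hspa1b* (ENSMUSG00000090877, chr17:34956436-34959238, minus strand) measured 12.8, 13.5, 15.3 and 14.1 CPM in sham-vehicle, 19.6, 14.6, 19.8, 15.9 and 15.5 CPM in LPS-vehicle, and 16.8, 15.8, 16.8 and 19.2 CPM with CPD-4645. Every LPS-CPD-4645 mouse lay above every sham-vehicle mouse, yet the log2 difference of 0.30 (SE 0.131) had an edgeR adjusted p of 0.0783. It passed in 1 of the 23 alternatives, limma-voom with quality weights (adjusted p = 0.0448). After LPS alone the *Hspa1b* difference was 0.28 (SE 0.125, adjusted p = 0.122), and between the LPS groups it was 0.02 (SE 0.124, adjusted p = 0.935). Both genes have 1 exon, their coding sequences are identical at 99.4% of aligned positions, and of the 75-base windows of the transcripts 52.7% for *Hspa1a* and 55.8% for *Hspa1b* occur unchanged in the other gene. Their counts are therefore uncertain. *Hspa1a* also overlaps *Gm20481* on the other strand. With their counts summed, the pair gave log2 differences of 0.22, -0.03 and 0.20 in the 3 comparisons, and none passed.

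**Figure D2:**
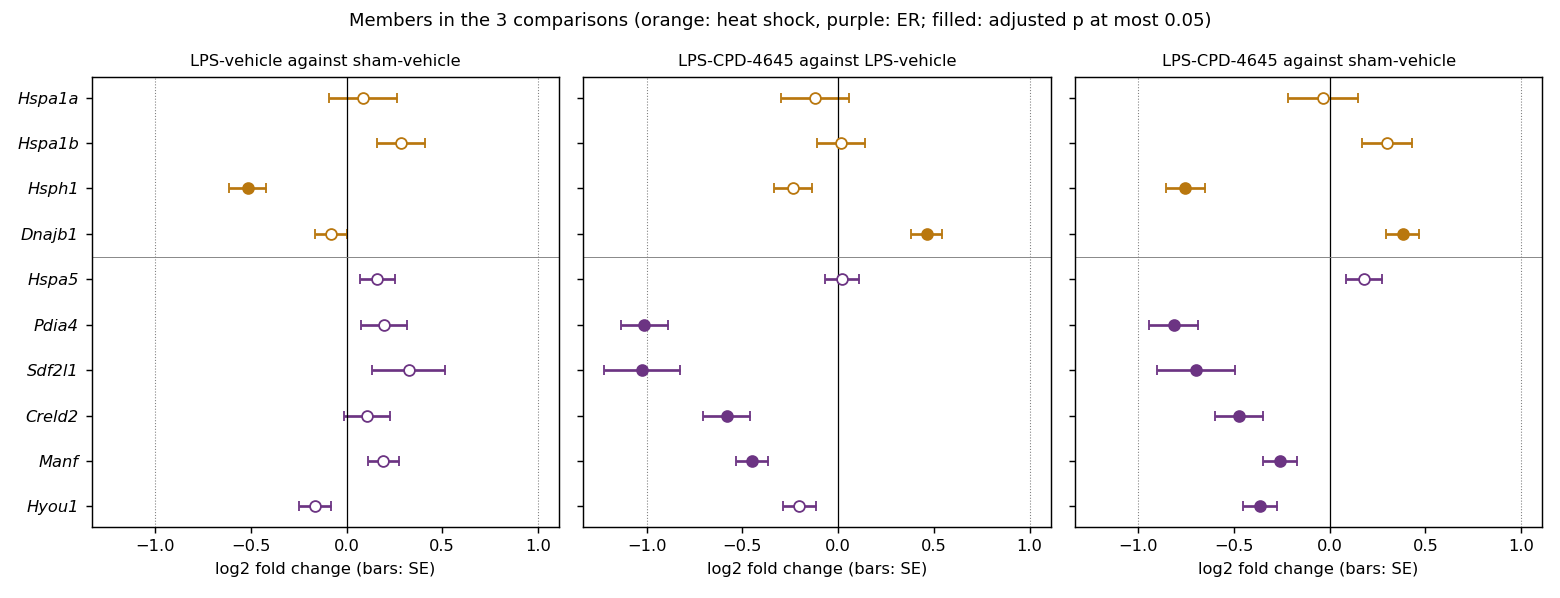
Log2 fold changes (horizontal axes) of the 10 genes in the 3 comparisons, with bars of 1 SE. Orange points are cytosolic heat shock genes and purple points ER genes, filled where the adjusted p was at most 0.05, and dotted lines mark a 2-fold change. In the middle panel *Pdia4* (-1.01) and *Sdf2l1* (-1.02) reach the 2-fold line, while *Hspa5* (0.02) stays at 0.

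The other genes of the cytosolic heat shock system, a list of 23, shifted in both directions. After LPS, 3 rose and 7 fell, where 19.9% of all genes passed, with a median log2 fold change of -0.22. The small heat shock gene *Cryab*, which encodes αB-crystallin, fell most, from 138 ± 8.1 to 51.8 ± 3.23 CPM (log2 -1.41, SE 0.094, edgeR adjusted p = 1.52e-08). Its locus overlaps *Hspb2* on the other strand. Beside it, 1 of the 6 oligodendrocyte markers rose and 4 fell after LPS, with summed levels of 4450 to 6390 CPM in sham-vehicle, 3160 to 4180 in LPS-vehicle and 3690 to 4760 with CPD-4645. Their part in the *Cryab* values was not tested. The related genes *Hspb8* (log2 0.91, SE 0.175, adjusted p = 0.00113) and *Hspb1* (0.80, SE 0.275, adjusted p = 0.0487) rose instead. The count of 10 went to 6 without sham-vehicle mouse 1 and to 6 without sham-vehicle mouse 4.

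Under CPD-4645 relative to LPS-vehicle, 6 of these 23 genes rose and 2 fell, with a median of 0.19, and these 8 calls are a share near the 30.5% of all genes. *Cryab* rose to 93.0 ± 14.2 CPM (log2 0.84, SE 0.094, edgeR adjusted p = 1.02e-05), which was still below every sham-vehicle mouse (log2 -0.56, adjusted p = 0.000231). *Hsp90aa1*, the inducible cytosolic HSP90 gene, went from 262 ± 35 CPM in sham-vehicle to 186 ± 32.2 in LPS-vehicle and 263 ± 23.8 with CPD-4645, falling after LPS (log2 -0.49, adjusted p = 0.00584) and rising under the compound (0.49, adjusted p = 0.00403). It was named after its values were seen. The falls were *Chordc1*, an HSP90 cochaperone gene that overlaps *Gm19178* on the other strand, and *Hsf1* itself. *Chordc1* went from 44.9 ± 7.77 to 17.3 ± 4.38 CPM (log2 -1.37, SE 0.181, adjusted p = 3.98e-05), and *Hsf1* from 36.1 ± 4.43 to 24.8 ± 2.68 CPM (-0.54, SE 0.107, adjusted p = 0.00114). The related factor gene *Hsf2* measured 48.2 ± 4.75 and 54.8 ± 3.8 CPM (adjusted p = 0.127). Against sham-vehicle mice 3 of the 23 rose, *Hspb1* by the most (log2 1.46, SE 0.287, adjusted p = 0.000614), and 5 fell, a share near the 38.8% of all genes.

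Of the ER genes, *Pdia4* (ENSMUSG00000025823, chr6:47796141-47813430, minus strand, overlapping the microRNA gene *Mir704*), the disulfide isomerase, was lower in every mouse given CPD-4645. Its levels were 39.3, 38.9, 44.3 and 42.0 CPM in sham-vehicle, 54.9, 48.1, 42.7, 39.4 and 49.9 CPM in LPS-vehicle, and 28.4, 25.6, 21.8 and 18.1 CPM with CPD-4645. The highest mouse given CPD-4645, at 28.4 CPM, lay well below the lowest mouse of either other group, at 38.9 CPM. Relative to LPS-vehicle the fall was 2.02-fold (log2 -1.01, SE 0.125, edgeR adjusted p = 2.27e-05), and relative to sham-vehicle 1.76-fold (-0.81, SE 0.129, adjusted p = 8.9e-05). After LPS alone the difference was 0.20 (SE 0.121, adjusted p = 0.283), with overlapping groups.

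*Sdf2l1* (ENSMUSG00000022769, chr16:17130138-17132383, minus strand), the partner of ER J-domain proteins, fell by a similar factor at a lower level and with more spread. It measured 15.5, 17.9, 16 and 25.2 CPM in sham-vehicle, 25.3, 23.8, 24.6, 14.7 and 28.3 CPM in LPS-vehicle, and 13.3, 8.92, 14.2 and 9.69 CPM with CPD-4645. No mouse given the compound reached the lowest of the other groups, although the gap to LPS-vehicle mouse 4 was only that between 14.7 and 14.2 CPM. The fall from LPS-vehicle was 2.03-fold (log2 -1.02, SE 0.198, edgeR adjusted p = 0.000949). From sham-vehicle it was 1.62-fold (log2 -0.70, SE 0.206, adjusted p = 0.0121), a call that was lost without sham-vehicle mouse 4 (-0.51, adjusted p = 0.0623), the mouse with the highest mitochondrial share. The LPS-vehicle mice were not separated from sham-vehicle (0.32, SE 0.192, adjusted p = 0.263).

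*Pdia4* and *Sdf2l1* were the 2 of the 6 ER genes that changed at least 2-fold between the LPS groups, where 5.90% of all genes did. They passed this line only narrowly. The count of 2 went to 0 without LPS-vehicle mouse 1, without LPS-vehicle mouse 5, without LPS-CPD-4645 mouse 4 and in the fit with a replicate block, and to 1 without sham-vehicle mouse 4, without LPS-CPD-4645 mouse 2, without LPS-CPD-4645 mouse 3 and with only the 2 groups in the fit. Their falls themselves stayed past the adjusted p of 0.05 in all 22 alternatives, with log2 values from -1.14 to -0.89 for *Pdia4* and from -1.15 to -0.92 for *Sdf2l1*. Against sham-vehicle mice 0 of the 10 genes changed 2-fold in the edgeR fit, where 11.1% of all genes did. DESeq2 and limma-voom also gave 0.

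*Creld2* (ENSMUSG00000023272, chr15:88819646-88826683, plus strand), whose promoter holds the exact ER element printed above, measured 24.6, 27.8, 24.1 and 20.6 CPM in sham-vehicle, 26.5, 26.6, 26.5, 24.1 and 27.2 CPM in LPS-vehicle, and 17.5, 15.8, 21.8 and 15 CPM with CPD-4645. The mice given CPD-4645 all lay below those of the LPS-vehicle group, a 1.5-fold fall (log2 -0.58, SE 0.122, edgeR adjusted p = 0.0017). They overlapped with sham-vehicle mouse 4 and fell relative to that group by -0.47 (SE 0.127, adjusted p = 0.00674). *Manf* (ENSMUSG00000032575, chr9:106838312-106891979, minus strand), which encodes a secreted ER stress protein with trophic activity, measured 91.0, 93.7, 96.5 and 89.7 CPM in sham-vehicle, 110, 105, 124, 90.1 and 102 CPM in LPS-vehicle, and 75.7, 80.1, 79.2 and 74.9 CPM with CPD-4645. Apart from mouse 4, the LPS-vehicle mice all exceeded the sham-vehicle mice, but the difference of 0.19 (SE 0.082) had an adjusted p of 0.112. Under CPD-4645 *Manf* fell 1.37-fold from LPS-vehicle (log2 -0.45, SE 0.083, adjusted p = 0.000637). It also lay below sham-vehicle (-0.26, SE 0.087, adjusted p = 0.0244), a call that was lost when sham-vehicle mouse 2, sham-vehicle mouse 3, LPS-CPD-4645 mouse 1 or LPS-CPD-4645 mouse 4 was left out (adjusted p up to 0.0789). The annotated span of *Manf* overlaps *Dcaf1*, *Gm37612*, *Rbm15b* and *4930524O07Rik*, so some of its reads could belong to these.

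*Hspa5* (ENSMUSG00000026864, chr2:34771970-34777547, plus strand), the gene of BiP, was like *Hyou1* not among the ER genes that fell between the LPS groups. It measured 218, 204, 221 and 226 CPM in sham-vehicle, 252, 251, 254, 216 and 245 CPM in LPS-vehicle, and 249, 289, 203 and 247 CPM with CPD-4645. The LPS groups overlapped over most of their range, and the difference between them was 0.02 (SE 0.089, edgeR adjusted p = 0.888). Relative to sham-vehicle the differences were 0.16 (SE 0.090, adjusted p = 0.229) after LPS and 0.18 (SE 0.094, adjusted p = 0.137) with CPD-4645, and the second passed in 2 of 22 alternatives, limma-voom with quality weights and without LPS-CPD-4645 mouse 3 (0.28, adjusted p = 0.0171). *Hyou1* (ENSMUSG00000032115, chr9:44379490-44392369, plus strand), the exchange factor for BiP, measured 93.3, 114, 101 and 104 CPM in sham-vehicle, 98.7, 101, 79.4, 90.9 and 88.6 CPM in LPS-vehicle, and 82.1, 80.9, 84.6 and 72.3 CPM with CPD-4645. The log2 difference was -0.16 after LPS (SE 0.084, adjusted p = 0.194) and -0.20 between the LPS groups (SE 0.085, adjusted p = 0.0815). Of the 3 comparisons only that of LPS-CPD-4645 with sham-vehicle passed (-0.37, SE 0.090, adjusted p = 0.00359), with no overlap. The difference between the LPS groups passed without the shallow library of LPS-vehicle mouse 3 (-0.25, adjusted p = 0.0316).

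Since *Hspa5* passed in no comparison of the edgeR fit, the other ER genes were also expressed relative to it in the same library, which removes the scaling between libraries. *Pdia4* stood at 18.9% ± 0.854 of the *Hspa5* CPM in sham-vehicle (SD, n = 4), 19.3% ± 1.92 in LPS-vehicle (n = 5) and 9.6% ± 1.87 with CPD-4645 (n = 4). The *Sdf2l1* ratio was 8.54% ± 1.87, 9.52% ± 1.72 and 4.83% ± 1.71 in the same order. For *Manf* it was 42.7% ± 2.69, 43.5% ± 3.15 and 31.9% ± 4.98. In *Pdia4* and *Manf* the highest library of the mice given CPD-4645 (11.4% and 39.1%) stayed below the lowest of both other groups. For *Manf* the lowest sham-vehicle library was close, at 39.6%. For *Sdf2l1* the ranges met, since LPS-vehicle mouse 4 stood at 6.82% and the highest LPS-CPD-4645 library at 6.98%. The *Creld2* ratio was 10.8% ± 0.365 after LPS and 7.33% ± 2.4 with CPD-4645, where a library at 10.8% lay inside the LPS-vehicle range. The *Hyou1* ratio was lower in LPS-vehicle (37.8% ± 4.25) than in sham-vehicle mice (47.5% ± 5.61), and 33.0% ± 6.17 in LPS-CPD-4645 mice. Sham-vehicle and LPS-vehicle did not overlap in it, but their closest libraries stood at 42.7% and 42.2%. These ratios are a description of the libraries and were not tested. *Hspa5* was chosen as the reference from these same data, so lower ratios of genes already called lower add no separate evidence.

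**Figure D3:**
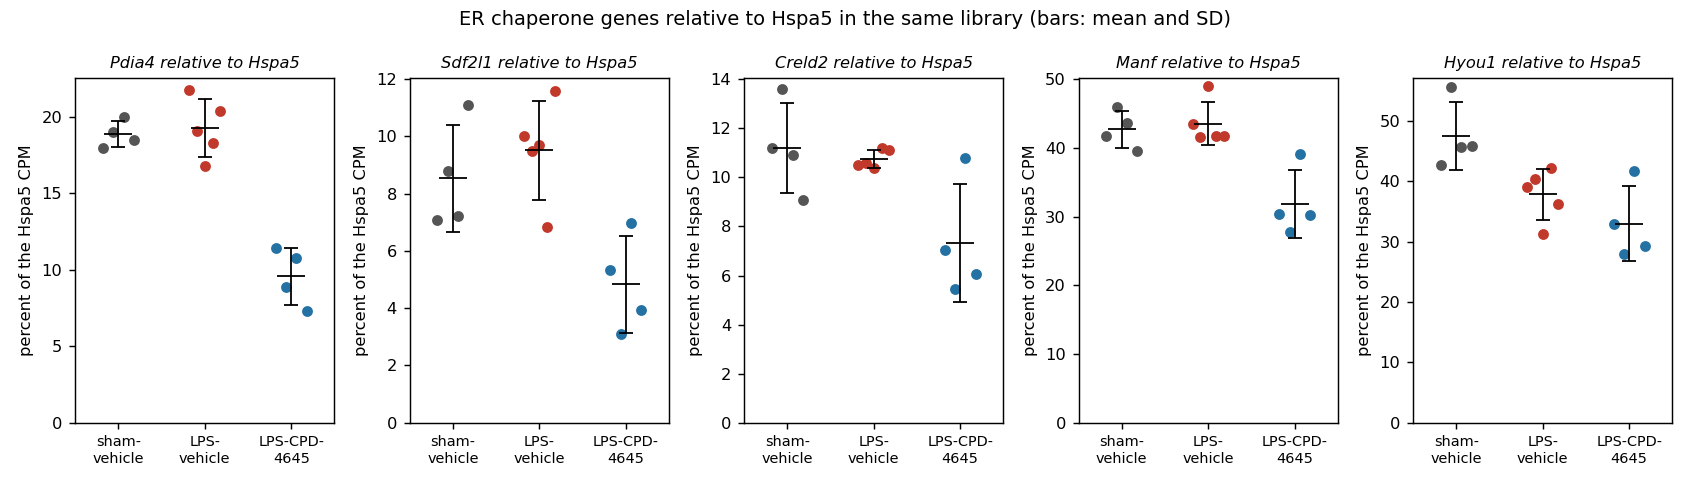
CPM of 5 ER genes as a percent of the *Hspa5* CPM of the same library (vertical axes, from 0), 1 point per mouse, with the mean and SD of each group. *Pdia4* lies between 16.8% and 21.8% in the LPS-vehicle mice and between 7.31% and 11.4% in the LPS-CPD-4645 mice.

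Markers of blood and vessel cells also passed the test between the LPS groups, where 30.5% of all genes passed. Of the 6 neutrophil markers tested, all 6 fell from LPS-vehicle to LPS-CPD-4645, with summed levels (7 genes) of 49.4 to 204 and 3.5 to 19.5 CPM. Of the 5 monocyte and macrophage markers tested 2 fell, with sums of 25.6 to 78.3 and 10.4 to 15.9 CPM. Among the 8 endothelial markers 4 fell (*Cldn5*, *Esam*, *Flt1* and *Pecam1*) and none rose, with sums of 461 to 904 and 537 to 687 CPM. For B and plasma cells, none of the 4 markers tested passed, and the sums were 6.2 to 19.6 and 6.17 to 11.4 CPM. Neutrophil markers were lower still in sham-vehicle mice, at 0.839 to 4.48 CPM in sum. Of the other marker lists, neuronal (1 rose and 0 fell of 6, *Rbfox3*), microglia (1 rose and 1 fell of 6), oligodendrocyte (2 and 1 of 6), platelet (0 and 1 of 2), choroid plexus (1 and 0 of 5) and ependymal genes (0 and 2 of 5) held calls between the LPS groups. None of the 7 pericyte and smooth muscle, 6 astrocyte, 2 T cell, 4 erythrocyte or 5 fibroblast genes tested passed there. Beside the falls relative to sham-vehicle, where 38.8% of all genes passed, 3 of the 8 endothelial markers rose and 2 fell. Of the 6 microglial markers 5 fell (sums of 174 to 229 and 119 to 144 CPM), and of the 5 ependymal markers 2 fell (21.8 to 25.7 and 7.59 to 15.2 CPM), and neither pair of sums overlapped. In the same comparison 1 rose and 4 fell of 7 pericyte and smooth muscle markers, 1 rose and 3 fell of 5 fibroblast markers, 2 of 6 astrocyte and 2 of 6 neutrophil markers rose, and 2 of 6 oligodendrocyte and 1 of 4 B and plasma cell markers fell. None of the neuronal, monocyte and macrophage, T cell, erythrocyte, platelet or choroid plexus markers tested passed there. The part of these cells in the falls of the ER genes was not tested.

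The sensors of ER stress did not change as a block. *Atf6* rose at both steps, from 45.9 ± 2.54 CPM in sham-vehicle to 56.9 ± 4.56 in LPS-vehicle and 73.2 ± 2.14 with CPD-4645 (log2 0.31 and 0.36, edgeR adjusted p = 0.00781 and 0.00195), with no overlap at either step. Its locus overlaps *Gm23523* and *Gm25235* on the same strand. *Xbp1* measured 115 ± 5.09, 138 ± 17.5 and 105 ± 16.6 CPM and fell between the LPS groups (log2 -0.40, SE 0.104, adjusted p = 0.00794). Gene counts hold no record of its splicing. *Ern1*, the IRE1 gene, measured 10.6 ± 0.661, 13.3 ± 3.81 and 10.1 ± 1.31 CPM and passed in no comparison (adjusted p = 0.0819 between the LPS groups).

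Among the other genes of ER folding and degradation, 33 of the 35 listed were tested. After LPS 6 rose and 3 fell, under CPD-4645 relative to LPS-vehicle 8 rose and 8 fell, and relative to sham-vehicle 9 rose and 4 fell, with medians of 0.06, 0.04 and -0.02. Of all genes 19.9%, 30.5% and 38.8% passed in the same comparisons, the last of these near the share of the list. The largest rises under CPD-4645 were those of *Herpud1* and *Selenos*, genes of ER-associated degradation (ERAD). *Herpud1*, which helps to assemble the ERAD complex, measured 86.9 ± 7.41, 112 ± 11 and 164 ± 12.2 CPM in sham-vehicle, LPS-vehicle and LPS-CPD-4645 mice. It rose after LPS (log2 0.37, SE 0.087, edgeR adjusted p = 0.00558) and again under CPD-4645 (0.55, SE 0.086, adjusted p = 0.000163), and it overlaps *Gm15890* on the other strand. *Selenos*, a selenoprotein gene, rose likewise, at 62.2 ± 5.5, 75.4 ± 4.35 and 108 ± 5.1 CPM (log2 0.27 and 0.52, adjusted p = 0.0171 and 0.000101). *Edem1* rose after LPS (0.39, SE 0.112, adjusted p = 0.02), where the signal peptidase gene *Sec11c* (-0.40, overlapping *AC124578.1* on the other strand) and the lectin chaperone gene *Canx* (-0.46) fell. The low-level gene *Derl3* fell under CPD-4645, from 2.55 ± 1.08 to 1.06 ± 0.727 CPM (-1.30, SE 0.440, adjusted p = 0.032). It was the 1 gene of this list past 2-fold between the LPS groups, and that count went to 0 without LPS-vehicle mouse 2, 3 or 5, without LPS-CPD-4645 mouse 2, 3 or 4, with the replicate block, with only the 2 groups in the fit and with a mean count of at least 50. Named after their values were seen, the J-domain gene *Dnajb11* rose between the LPS groups (log2 0.33), and *Hsp90b1*, the gene of the ER HSP90, passed in no comparison (257 ± 19 and 267 ± 22.6 CPM in the LPS groups, adjusted p = 0.643). Without sham-vehicle mouse 3 the 9 calls after LPS became 5, and without LPS-CPD-4645 mouse 4 the 16 calls between the LPS groups became 10.

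The PERK and ATF4 genes, 18 in all, rose more often than they fell. After LPS 7 rose and 0 fell, where 19.9% of all genes passed, with a median of 0.10, and DESeq2 gave 7 and 1. Between the LPS groups 6 rose and 1 fell, where 30.5% of all genes passed, with a median of 0.26, and without LPS-vehicle mouse 2 the 7 calls became 11, 10 of them up. Relative to sham-vehicle 10 rose and 0 fell under CPD-4645 in edgeR, where 38.8% of all genes passed, with a median of 0.32. *Ddit4*, an inhibitor of mTORC1, measured 29.4 ± 5.67, 93.3 ± 11.2 and 134 ± 23.4 CPM in the 3 groups and rose at both steps (log2 1.67 and 0.52, edgeR adjusted p = 1.09e-07 and 0.00502). *Atf3* (2.49, SE 0.386, adjusted p = 0.000136) and the pseudokinase gene *Trib3* (1.29, SE 0.292, adjusted p = 0.00397) rose after LPS and measured about the same in both LPS groups, at 9.54 ± 6.08 and 10.8 ± 1.28 CPM for *Atf3*. *Sesn2* (0.76, SE 0.179, adjusted p = 0.00402) and *Eif2ak3*, the PERK gene (0.42, SE 0.102, adjusted p = 0.00506), rose between the LPS groups. *Atf4* itself measured 221 ± 10, 222 ± 36 and 261 ± 22.5 CPM and *Ddit3*, the CHOP gene, 37.9 ± 0.729, 37.3 ± 4.78 and 41.9 ± 5.78 CPM, and neither passed in any comparison. *Ddit3* overlaps *Mars* and *Gm4189* on the other strand and another entry named *Ddit3* on the same strand. *Atf3* overlaps *Gm24748* on the other strand. *Sesn2* overlaps *Gm12981* on the same strand, and *Eif2ak3* overlaps *Gm23346* on the same and *Gm43292* on the other strand.

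**Figure D4:**
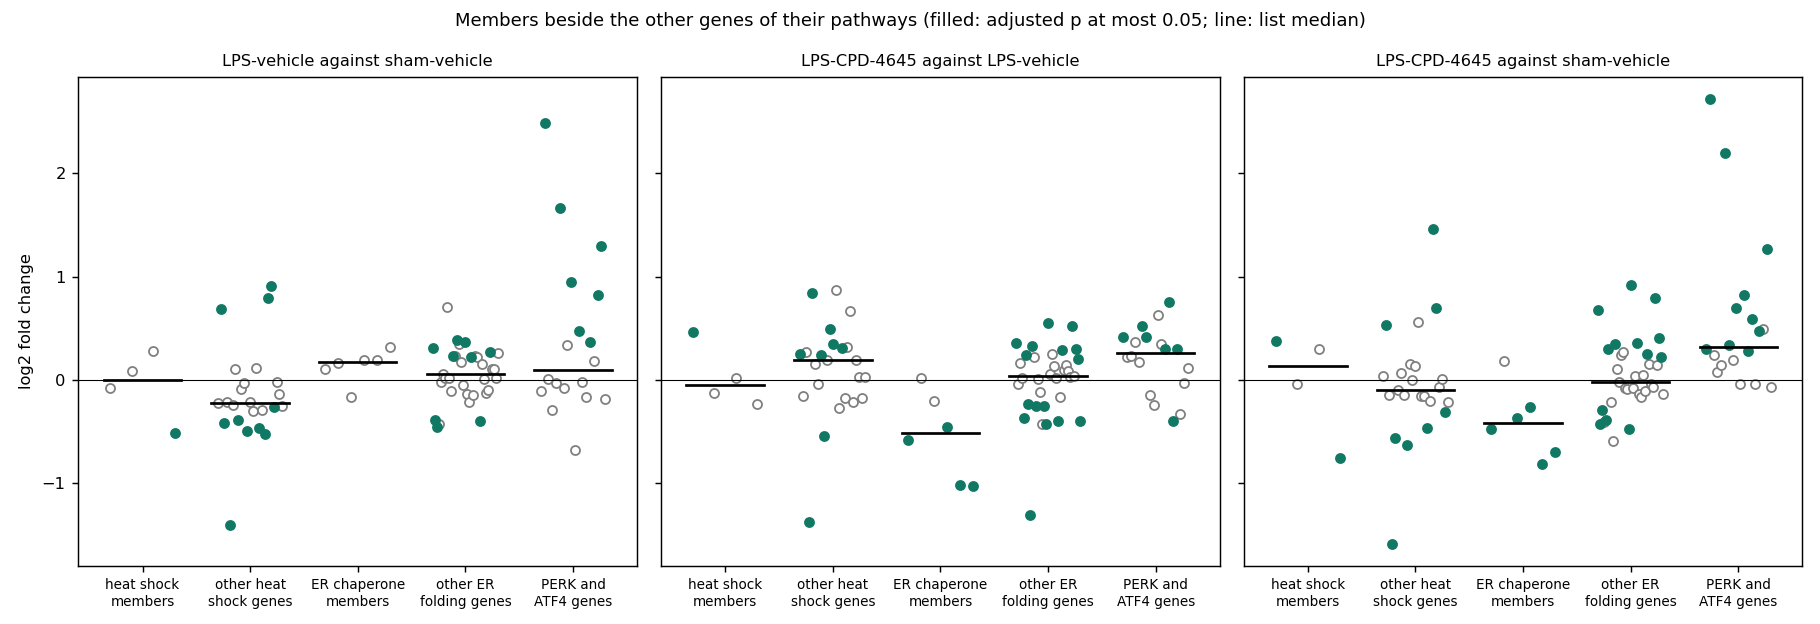
Log2 fold changes (vertical axis, shared) of the tested genes of 5 lists in the 3 comparisons, 1 point per gene, filled where the adjusted p was at most 0.05, with a line at each list's median. In the middle panel the median of the 6 ER chaperone genes lies at -0.52, beside 0.04 for the other ER folding genes and 0.26 for the PERK and ATF4 genes.

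The immediate early genes, a list of 13 that responds quickly to handling and to neuronal activity, were measured as a further reference (19.9%, 30.5% and 38.8% of all genes passed in the 3 comparisons). After LPS 5 rose and 4 fell, with the largest falls in *Egr1* (log2 -1.25, edgeR adjusted p = 2.05e-05), *Egr3* (-1.20, adjusted p = 0.0274) and *Npas4* (-1.17, adjusted p = 0.00164). Between the LPS groups 0 rose and 2 fell, *Npas4* (-0.95, adjusted p = 0.00889) and *Fos* (-0.88, adjusted p = 0.0464). That count of 2 was 1 without LPS-vehicle mouse 1, without LPS-vehicle mouse 3, without any of the 4 LPS-CPD-4645 mice in turn, without the 2 shallowest libraries and in limma-voom with or without quality weights. It was 4 without sham-vehicle mouse 2, with no filter on low counts, with only the 2 groups in the fit and in DESeq2. Relative to sham-vehicle 4 rose and 4 fell under CPD-4645, *Egr2* (-2.26, adjusted p = 0.00542) and *Npas4* (-2.12, adjusted p = 7.79e-06) by the most.

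Within groups the mice did not share a common order over the 10 genes. Over the 13 deviations from the group means of log2 CPM, Pearson's r between pairs of ER genes ran from -0.58 to 0.45 with a median of 0.29 (15 pairs), and between pairs of heat shock genes from -0.29 to 0.59 with a median of 0.02 (6 pairs). Across the systems it ran from -0.66 for *Hsph1* with *Hyou1* to 0.69 for *Hspa1a* with *Creld2* (24 pairs, median 0.09). The genes of a pair share each library's scaling and depth, and these values are a description. LPS-vehicle mouse 4 was the lowest of its group for *Hspa5*, *Pdia4*, *Sdf2l1*, *Creld2* and *Manf*, at 216, 39.4, 14.7, 24.1 and 90.1 CPM, but not for *Hyou1*. LPS-CPD-4645 mouse 3 had the lowest *Hspa5* of its group (203 CPM) and the highest *Sdf2l1*, *Creld2* and *Hyou1* (14.2, 21.8 and 84.6 CPM). The genes closest to *Hspa5* in their levels over the 13 mice were *Ankrd46*, *Cnot1*, *Ftsj3*, *Hnrnpl* and *Cpe*, each at a root mean square difference of 0.10 on the log2 scale, and none of them is on the chaperone lists.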

How the data were processed

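RNA of isolated brain vessels from 13 mice was made into stranded polyA libraries from 50 ng. Per the labels, the authors used bcl2fastq 2.15.0.4 and STAR 2.5.2a with mm10 (GRCm38). The study names the GENCODE M9 basic annotation. The deposited values are whole-number counts per gene, not normalized. The strand setting of the counting is not given in the sources used here, so genes that overlap the 10 genes, the sensors or the pathway genes named by rule are given beside them.

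Symbols, positions and exon lengths came from GENCODE M21 (47224 of 47643 identifiers matched). In R 4.3.3, edgeR 4.0.16 kept 17285 of 27934 genes with any count (filterByExpr, minimum count 10, minimum total 15), applied TMM (factors 0.908 to 1.08) and fitted the 3 groups without covariates by quasi-likelihood. Log2 CPM used a prior count of 2. Limma-voom, the study's own test (limma 3.58.1), and DESeq2 1.42.0 were alternatives, with voomWithQualityWeights, DESeq2 size factors, no filter, a mean count of at least 50, the 2 groups alone, a replicate block, the 2 shallowest libraries left out, each mouse left out and *Hspa1a* and *Hspa1b* summed. The edgeR step was tested on simulated data. Promoters were RefSeq's for GRCm38.p6. Python 3.11.15, pandas 2.3.3, numpy 2.4.6, Biopython 1.88 and matplotlib 3.10.9 did the rest.

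The 10 genes, the heat shock, ER folding, PERK and ATF4, immediate early and marker lists, and the tests were chosen with earlier results of these data known. Named genes are the 10 genes, 8 sensors and factors (*Hsf1*, *Hsf2*, *Xbp1*, *Atf6*, *Ern1*, *Eif2ak3*, *Atf4*, *Ddit3*), up to 3 genes per list and comparison with the largest change past the adjusted p of 0.05, the 5 genes most like *Hsph1* and *Hspa5*, and marker genes beside a result. *Hsp90aa1*, *Dnajb11* and *Hsp90b1* were named outside this rule, after their values were seen. Groups came from the labels. The p-values measure the spread between mice of 1 experiment.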

Additional observations from a re-analysis of the deposited data

Results flagged for a closer look

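Values standing apart from the rest of their group by Dixon's ratio were found in 3 of the 30 combinations of gene and group, where chance flags about 1 in 20. *Hspa1a* in LPS-CPD-4645 mouse 3, at 8.09 CPM, was the highest of its group, and the other 3 mice lay between 6.25 and 6.44 CPM. *Hspa5* in LPS-vehicle mouse 4, at 216 CPM, was the lowest of its group, with the other 4 mice at 245 to 254 CPM. *Creld2* in the same mouse, at 24.1 CPM, was also the lowest of its group, with the others at 26.5 to 27.2 CPM.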

How the results depend on the processing

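Each result was refitted under 22 alternatives (23 for *Hspa1a* and *Hspa1b*). Of these fold changes of the 10 genes, 637 kept their direction and their side of the threshold, 8 newly passed it, 5 lost it and 16 changed sign. Among the counts of the 10 genes, 132 stayed within 1.5 times their value and 3 moved, all with a mouse left out. Of the pathway list counts 246 stayed so and 18 moved, 13 of them for the immediate early genes between the LPS groups. The count of ER genes after LPS was 0 to 1, and that of heat shock genes between the LPS groups 1 to 2. The sign changed only in differences that passed in no alternative, and the largest value of the other sign was 0.197. With a mouse left out, *Hspa1a* after LPS ran from -0.008 to 0.216 and, relative to sham-vehicle under CPD-4645, from -0.124 to 0.104, while between the LPS groups *Hspa1b* ran from -0.037 to 0.075 and *Hspa5* from -0.065 to 0.112. Without the 2 shallowest libraries *Hspa1a* was -0.008 after LPS and 0.007 between the LPS groups. Between the LPS groups *Hspa1b* was -0.014 with the replicate block and -0.026 summed with *Hspa1a*, and the summed value relative to sham-vehicle was 0.197 under CPD-4645. The cause was not tested.

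The replicate numbers name mice and do not pair them. Deviations of same-numbered mice correlated at -0.035 to 0.114 over 12 pairs, and those of other pairs at -0.137 to 0.124. With the replicate block *Pdia4* and *Sdf2l1* still fell between the LPS groups, but 0 instead of 2 ER genes reached 2-fold. No other call of the 10 genes changed under it.

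Depth limited *Hspa1a* most, with 77 to 371 counts per library. With 4 or 5 mice a group the SEs were 0.082 to 0.206 on the log2 scale, and differences such as that of *Hyou1* between the LPS groups passed or missed the threshold with 1 mouse. The gene counts carry no isoforms, and no protein was measured.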
